A study of Mus musculus with 48 samples.

Results

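The 9 genes described here, Cbln1, Cbln3, Chn2, Fat2, Zic1, Zic2, Pax6, Neurod1 and Etv1, are genes known from granule cells of the mouse cerebellum. They were taken by symbol from a count table of 56748 genes, and all 9 were found. Messenger RNA of 4 brain regions (cerebellum, dorsal hippocampus, ventral hippocampus and medial prefrontal cortex) had been sequenced from 16-week-old female and male mice. One genotype label, KO, stands for the line 129/Sv-Cyp2e1tm1Gonz/J, which carries a targeted Cyp2e1 allele, and the other, WT, for 129S1/SvImJ. Sex, label and region give 16 groups of 3 libraries, 48 in all. The KO mice are thus compared with a related 129 strain, and any other difference between the strains goes with the label. Cyp2e1 itself, a cytochrome P450 that oxidises ethanol, lay between 2.32 and 5.97 CPM (counts per 1000000 of the library total, scaled by TMM) in the libraries labelled KO and between 0 and 0.45 CPM in those labelled WT. This goes against the label, so the groups are called by their labels throughout, and every direction between them would turn round if the labels were exchanged.

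Cerebellar granule cells are small glutamatergic neurons that arise from precursors of the rhombic lip and form the inner, granular layer of the cerebellar cortex. Their axons, the parallel fibres, contact the dendrites of Purkinje cells, and the secreted protein Cbln1 holds that synapse together by bridging its presynaptic and postsynaptic sides. Cbln3 is a partner that assembles with Cbln1. Chn2 encodes beta2-chimaerin, which switches off the GTPase Rac, and Fat2 is a very large atypical cadherin of granule cells. The other 5 genes encode transcription factors: the zinc finger proteins Zic1 and Zic2, the paired-box protein Pax6, the bHLH protein Neurod1 and the ETS protein Etv1, which acts in late maturation of granule cells. Pax6 and Neurod1 also act in neurons of the dentate gyrus, and Etv1 marks deep-layer neurons of the neocortex, so these genes are not restricted to the cerebellum.

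Libraries of the same labelled region stood apart from each other, and this touches every result below. Library totals ran from 14.56 M to 25.86 M counts. In the cerebellum, Pcp2, a defining Purkinje cell marker, ran from 4.22 CPM in female WT 1, 5.58 in male WT 3 and 10.8 in male WT 2 to 271 in male KO 1. Gabra6, the GABA receptor subunit typical of mature granule cells, ran from 6.85 CPM in male WT 3 to 776 in male KO 3. By contrast, 5 hippocampal libraries held Pcp2 above 10 CPM: male KO dorsal 1 at 55.4, female KO ventral 1 at 15.6, male KO ventral 3 at 107, male WT ventral 1 at 110.5 and male WT ventral 2 at 75.8 CPM. In the 31 other forebrain libraries the median of Pcp2 was 0.189 CPM. Results are therefore also given without those 5 hippocampal libraries, or without the 3 cerebellar libraries of lowest Pcp2, 2 sets chosen after the data were seen. In bulk tissue, fewer cells of a type and less RNA per cell cannot be told apart.

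For reference, 3 of the members' promoter windows are shown, each the 250 bases before a RefSeq transcription start (GRCm38.p6). Whether they bear on the levels described below was not tested. Cbln3 and Fat2 are shown because their levels separated the cerebellum most widely from the forebrain. Chn2 is shown for the start whose window holds the E-box CAGCTG, a motif bound by bHLH proteins, in capitals. The windows lie at chr14:55884257-55884506 (minus strand, Cbln3), chr11:55312258-55312507 (minus strand, Fat2) and chr6:54264608-54264857 (plus strand, Chn2).

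Cbln3: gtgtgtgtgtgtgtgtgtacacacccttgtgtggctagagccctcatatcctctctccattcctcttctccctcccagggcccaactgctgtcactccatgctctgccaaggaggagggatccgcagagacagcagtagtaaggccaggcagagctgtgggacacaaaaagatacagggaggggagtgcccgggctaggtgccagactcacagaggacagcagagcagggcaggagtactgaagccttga
Fat2: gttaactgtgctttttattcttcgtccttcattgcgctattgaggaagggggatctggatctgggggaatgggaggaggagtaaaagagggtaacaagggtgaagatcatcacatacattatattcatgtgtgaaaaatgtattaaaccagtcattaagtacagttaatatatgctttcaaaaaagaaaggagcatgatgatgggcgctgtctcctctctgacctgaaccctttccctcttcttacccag
Chn2: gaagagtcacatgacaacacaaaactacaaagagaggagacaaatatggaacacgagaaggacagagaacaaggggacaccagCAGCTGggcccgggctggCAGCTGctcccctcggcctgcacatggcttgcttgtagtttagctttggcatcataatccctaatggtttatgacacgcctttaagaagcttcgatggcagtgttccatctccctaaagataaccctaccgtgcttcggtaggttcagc

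Of the 9 genes, 7 had an entry in the promoter table, with 12 windows in all, and Cbln1 and Zic2 had none. The windows were searched on both strands for 5 sequences, and matches to different sequences lay in different windows. CAGCTG occurred in Chn2 windows, 167 and 149 bases before the start shown and 19 bases before another start, and in 13.0% of all 32851 windows of the table. A second E-box, CAGATG, occurred in Etv1 (14.4% of all windows), and the ETS core CGGAAG in Pax6 (13.6% of all windows). The sequence CCTGCTG, a ZIC core (8.44% of all windows), and the NFI palindrome (0.0365% of all windows) were in none of the 12. No sequence searched was thus shared by the windows of more than 1 member. The median GC content was 52.8% over the members' windows and 52.4% over all windows.

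In the cerebellum the 9 genes were abundant, but their levels spread so widely that the mean describes few of the libraries. The synapse organiser Cbln1 (ENSMUSG00000031654, chromosome 8, 88195033 to 88199237 on mm39) averaged 438 ± 387 CPM (SD, n = 12) and ran from 38.3 to 1142 CPM. Its partner Cbln3 (ENSMUSG00000040380, chromosome 14, 56116370 to 56121849) averaged 690 ± 667 CPM and ran from 19.0 to 1784 CPM, a 93.8-fold range. The SD is thus close to the mean in both genes.

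Fat2 (ENSMUSG00000055333, chromosome 11, 55141435 to 55227390), the cadherin, ran from 12.6 to 975 CPM with a mean of 393 ± 363. Chn2 (ENSMUSG00000004633, chromosome 6, 54016539 to 54278795), the Rac regulator, ran from 39.5 to 914 CPM with a mean of 356 ± 316. Among the transcription factors, Zic1 (ENSMUSG00000032368, chromosome 9, 91240111 to 91247863) averaged 391 ± 344 CPM. Neurod1 (ENSMUSG00000034701, chromosome 2, 79282865 to 79287095) had the widest range of the transcription factors, from 8.05 to 389 CPM. Etv1 (ENSMUSG00000004151, chromosome 12, 38829379 to 38920483) had the narrowest of all 9, from 44.3 to 581 CPM, which is still 13.1-fold.

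Scaled by the deposited gene length, Cbln1 and Cbln3 were the most abundant members, at mean levels of 144 and 142 CPM per kb. Zic1, Chn2 and Neurod1 followed at 68.6, 61.2 and 58.7 CPM per kb, then Zic2 (ENSMUSG00000061524, chromosome 14, 122712847 to 122717264) at 44.1 and Fat2 at 27.1. Etv1 at 18.1 and Pax6 (ENSMUSG00000027168, chromosome 2, 105499245 to 105527709) at 3.42 CPM per kb were lowest. The genes share the same libraries and vary together, so the SD between libraries is no measure of the difference between genes. Within libraries, Zic2 stood above Fat2 and Etv1 above Pax6 in 12 of 12. For the other 6 pairs of neighbours the order held in 8 to 10 of 12 libraries and was turned in the rest. No test was run between genes. Counts of 5 members are uncertain, since their genes overlap others and whether reads were assigned by strand is not given in the sources used here. These are Cbln1 with Gm2694, Chn2 with 4 lncRNA genes and a pseudogene, Zic1 with Zic4, Pax6 with Pax6os1 and, on the same strand, Neurod1 with Cerkl. The overlapping genes had far fewer counts, for example 10365 for Zic4 against 134648 for Zic1 over all libraries.

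Across regions, Cbln3 and Fat2 set the cerebellum apart completely only once the 5 hippocampal libraries with Pcp2 above 10 CPM were left out. For both genes those 5 were the forebrain libraries above the lowest cerebellar one, so the separation depends on that choice. With all 36 forebrain libraries, 7 of 12 cerebellar libraries lay below the highest forebrain library in each gene. The lowest cerebellar library held 19.0 CPM of Cbln3, and the other 31 forebrain libraries averaged 1.26 ± 1.67 CPM, none of them above that level. For Fat2, the lowest cerebellar library held 12.6 CPM and the 31 averaged 0.677 ± 1.30 CPM, again with none above it. Their mean levels in the cerebellum were 546 and 580 times those of the 31, while against all 36 forebrain libraries the ratios were 8.44 and 8.19. No test is given for these differences, since the genes are named for the cerebellum.

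Etv1 lay at the other end. Its cerebellar mean was 1.61 times that of the 31 forebrain libraries, and 7 of 12 cerebellar libraries lay below the highest of the 31. Its medians were 164 CPM in the cerebellum, 200.3 in the dorsal hippocampus, 154 in the ventral hippocampus and 108 in the prefrontal cortex. Among libraries labelled WT alone the order turned round, and its cerebellar mean was below that of the forebrain (log2 ratio -0.35). The remaining 6 genes lay between these extremes, with mean ratios to the 31 from 4.24 for Pax6 to 16.6 for Cbln1.

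**Figure D1:**
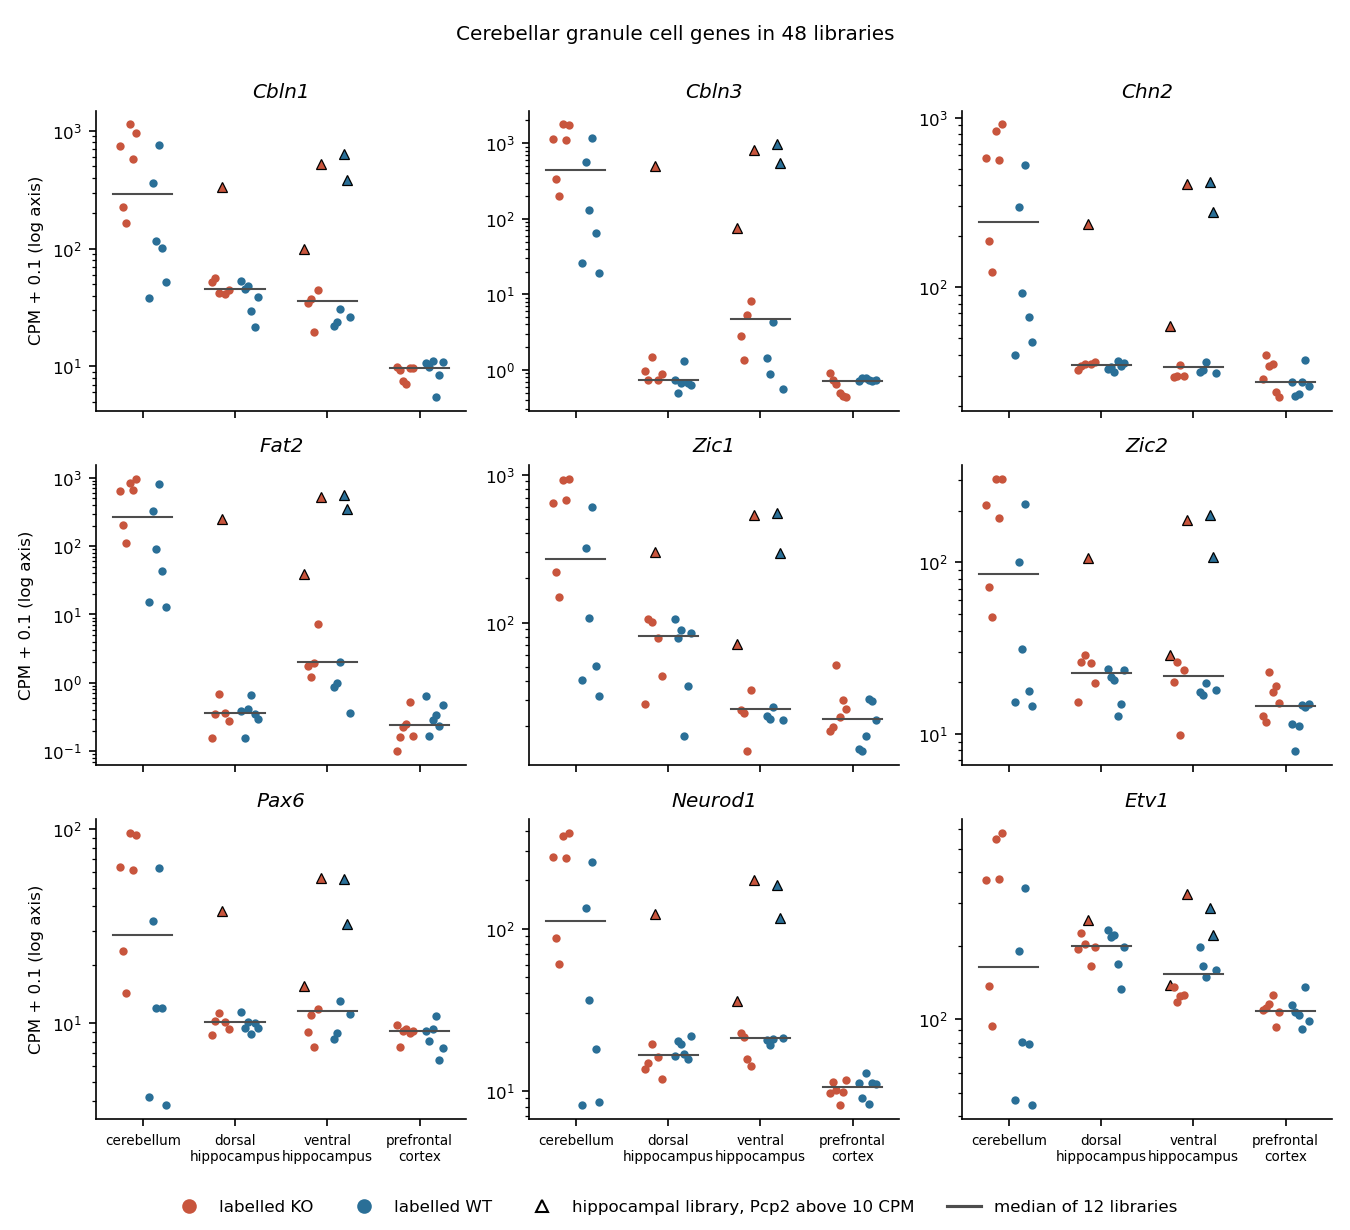
CPM + 0.1 (log axis) of each of the 9 genes in 48 libraries by region, one point per library coloured by genotype label, with triangles for the 5 hippocampal libraries of Pcp2 above 10 CPM and lines at the median of 12 libraries. Cerebellar points span more than a decade for each gene (13.1-fold for Etv1 at the least), and for Cbln3 and Fat2 the triangles lie among the cerebellar points, above every other library of their own region.

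The 9 genes varied together among the 12 cerebellar libraries. In 61 of the 66 pairs of libraries, all 9 genes were ordered the same way. The highest library was male KO 1 or male KO 3 for every member, and the lowest was female WT 1 or male WT 3. Summed over the 9 genes, female WT 1 and male WT 3 held 233 CPM each and male WT 2 held 453, whereas male KO 1 and male KO 3 held 6833 and 6903. Male WT 1, at 4758 CPM, lay above every female KO library and above male KO 2.

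**Figure D2:**
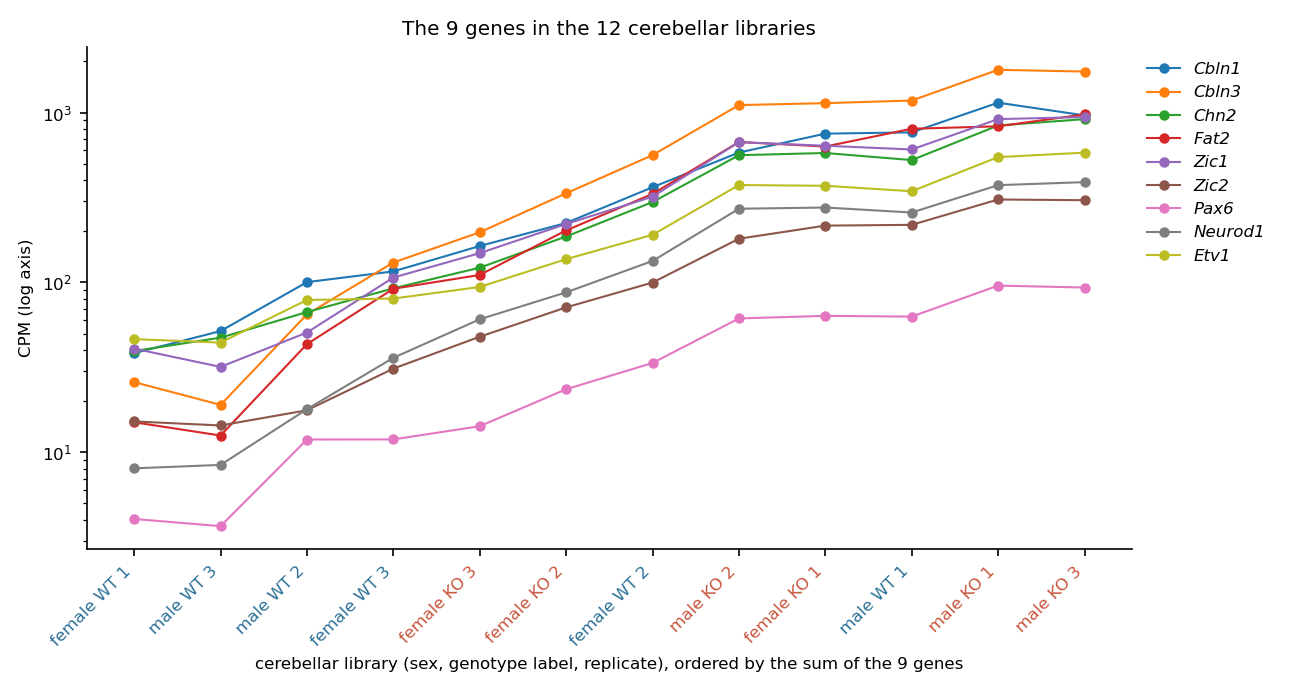
CPM (log axis) of the 9 genes in the 12 cerebellar libraries, ordered from the lowest to the highest sum of the 9 genes, with label colours on the names (red KO, blue WT) and lines joining the values of one gene. The lines run nearly parallel from 233 to 6903 summed CPM, Etv1 the flattest and Cbln3 and Fat2 the steepest.

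How closely each gene followed the others was measured as the root mean square difference between its log2 CPM and the mean of the other 8 members, each relative to its own mean over the 12 libraries. Zic1 followed most closely, at 0.17. Cbln1 and Zic2 followed at 0.25 each, Chn2 at 0.27, Pax6 at 0.28 and Neurod1 at 0.32. Fat2 at 0.53, Etv1 at 0.57 and Cbln3 at 0.58 departed furthest, Fat2 and Cbln3 because they spread more than the rest (SD of log2 CPM 2.26 and 2.33) and Etv1 because it spread less (1.35). Against Cbln3, the other 8 genes lay on nearly straight lines over the 12 libraries. Each CPM of Cbln3 went with 0.576 CPM of Cbln1 (SE 0.0238), 0.535 of Fat2 (0.0317) and 0.0508 of Pax6 (0.000791). These points share a library and its composition, so the lines describe the libraries and carry no test.

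Among 10145 other genes with a mean of at least 10 CPM, the 10 that varied most like the 9 members included genes known from granule cells, Purkinje cells and Bergmann glia. Closest was Zic5, a family relative of Zic1 and Zic2, at a root mean square difference of 0.16 log2 units over the 12 libraries, running from 1.80 to 53.4 CPM. Exph5, an effector of Rab27 GTPases, followed at 0.17 and Gdf10, a growth factor known from Bergmann glia, at 0.21 (3.93 to 130.5 CPM). Homer3, a scaffold of Purkinje cell spines, and Gabrd, the GABA receptor delta subunit of granule cells, stood at 0.23 each. The next 5 were Atp2a3, Mybpc3, Neurod2, Arhgef33 and Il16, at 0.23 to 0.27. These genes were picked for their likeness, so the values rank them and test nothing.

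Other genes of the granule cell showed the same libraries at the ends. Of 19 such genes, 17 were highest in male KO 1 or 3 and 18 were lowest in one of the 3 libraries of lowest Pcp2. How many of all genes have their extremes in these libraries was not counted. This count and those for the lists below therefore only describe the listed genes. Gabra6 had the widest range, 113-fold. Slc17a7, the vesicular glutamate transporter VGLUT1, ran from 13.8 to 629 CPM and Neurod2 from 3.72 to 147 CPM. The exceptions were Cntn2, an adhesion protein of axons that oligodendrocytes also make, which varied only 1.70-fold and was highest in male WT 1, and Barhl1, a homeobox gene of the granule lineage, which was highest in female KO 1 at 36.3 CPM.

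Genes of the cerebellin synapse divided: of 13, 7 were highest in male KO 1 or 3 and 5 were highest in one of the 3 libraries of lowest Pcp2. The presynaptic receptor genes Nrxn2 and Nrxn3, expressed by neurons in general, varied little, from 384 to 549 and from 204 to 305 CPM. The relatives Cbln2 and Cbln4 ran the other way: Cbln2 was lowest in male KO 3 at 3.05 CPM and highest in female WT 1 at 85.3 CPM, and Cbln4 was lowest in male KO 3 at 2.62 CPM and highest in male WT 3 at 51.7 CPM.

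Of 17 family relatives, 8 were highest in male KO 1 or 3 and 5 were highest in one of the 3 libraries of lowest Pcp2. Zic5, Neurod2 and Zic4, which also stand in the list of other granule cell genes, were among the former. Chn1, the alpha-chimaerin gene, was highest in female WT 1 (222 CPM) and lowest in male KO 1 (85.4 CPM), opposite to Chn2. Fat3 and Fat4 were lowest in male KO 1 (20.8 and 5.37 CPM), while Fat1 was highest in male KO 3 (376 CPM). Of 11 genes of dividing granule precursors, 2 were highest in male KO 1 or 3 and 7 in one of the 3 libraries of lowest Pcp2. Boc, a hedgehog co-receptor gene, was among the 2, with 13.1 CPM in male WT 3 and 121 CPM in male KO 3. Atoh1, which specifies the lineage, reached at most 0.209 CPM, and the proliferation gene Mki67 lay between 0.242 and 0.844 CPM. Both, and Top2a at no more than 1.63 CPM, are among the 7, and few counts set which library is their highest.

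Purkinje cell markers moved with the members. Summed over a list, markers of the other cell types given here ran lower under KO or differed little, with ranges that overlapped between the labels. Every gene of the lists given here had a count in the cerebellum. Summed over 11 Purkinje cell genes (among them Pcp2, Calb1, Car8 and Pcp4), libraries labelled KO held 2046 to 9863 CPM and those labelled WT 823 to 5264. All 11 were highest in male KO 1 or 3 and lowest in one of the 3 libraries of lowest Pcp2, which for Pcp2 itself follows from how those 3 were chosen. Summed over 16 genes of brainstem and midbrain neurons, the direction was opposite, with 101 to 747 CPM under KO and 493 to 1147 under WT. Summed over 10 genes of mature oligodendrocytes, libraries labelled KO held 4315 to 8096 CPM and those labelled WT 7129 to 17121. Sums over 10 genes of Bergmann glia and astrocytes overlapped between the labels, at 4065 to 5280 and 4251 to 5119 CPM. A sum can hide single genes: Gdf10, of this list, varied like the members, from 3.93 to 130 CPM. The part of these cell types in the members' levels was not tested.

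**Figure D3:**
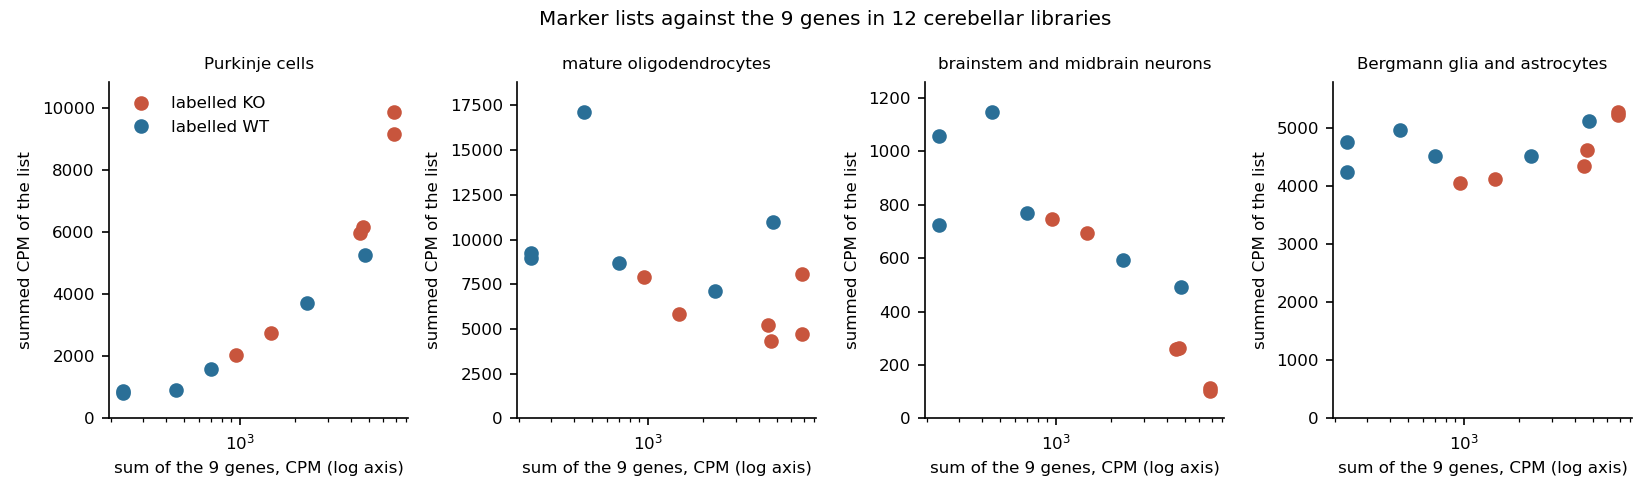
Summed CPM of 4 marker lists (vertical axes, from 0) against the summed CPM of the 9 genes (log axis) in the 12 cerebellar libraries, coloured by genotype label. Purkinje cell genes run from 823 to 9863 CPM, highest where the 9 genes are highest, brainstem and midbrain genes are lowest there at 101 CPM, and Bergmann glia and astrocyte genes stay between 4065 and 5280 CPM.

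Whether the members differ between the 2 labels is the comparison the study set up. In the cerebellum each of the 9 had a higher estimate under the KO label, but none was called by edgeR's quasi-likelihood test (Benjamini-Hochberg adjusted p under 0.05), where 7.98% of the 17825 genes tested were called (2.43% higher and 5.55% lower). Of the 9, only Etv1 was under 0.05 before adjustment. Over the 9, the median log2 difference (KO minus WT) was 1.42, against -0.00050 over all genes tested. DESeq2 called none of the 9 either.

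Cbln1 ran from 164 through a median of 666 to 1142 CPM under KO and from 38.3 through 108 to 764 CPM under WT. The labels overlap: male WT 1 is the highest WT library and lies above the KO median, and female KO 3 is the lowest KO library, below female WT 2 at 363 CPM. The log2 difference was 1.33 (SE 0.72, adjusted p = 0.200 by edgeR). Cbln3 ran from 197 through 1121 to 1784 CPM under KO and from 19.0 through 97.9 to 1177 under WT, with a log2 difference of 1.53 (SE 0.94, edgeR adjusted p = 0.260). Here too male WT 1 lies above the KO median.

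Fat2 ran from 111 through 651 to 975 CPM under KO and from 12.6 through 67.6 to 802 under WT. Its log2 difference was 1.30 (SE 0.93, edgeR adjusted p = 0.329), the largest adjusted p of the 9. Chn2, at 122 to 914 and 39.5 to 525 CPM, differed by 1.44 (SE 0.68, adjusted p = 0.151). In both genes the labels overlap over most of their ranges.

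Among the transcription factors, Zic1 ran from 149 through 654 to 941 CPM under KO and from 31.8 through 78.8 to 606 under WT (log2 difference 1.47, SE 0.74, edgeR adjusted p = 0.171). Neurod1 had the largest estimate of the 9, 1.54 (SE 0.84, adjusted p = 0.204), with 60.7 to 389 CPM against 8.05 to 258. Etv1 had the smallest p, at 94.1 to 581 against 44.3 to 344 CPM (1.29, SE 0.54, adjusted p = 0.116). Zic2 (1.42, SE 0.72) and Pax6 (1.34, SE 0.66) gave adjusted p of 0.176 and 0.167.

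One library decided the call. Without male WT 1, all 9 genes were called higher under KO by edgeR, where 3201 genes were called higher and 3199 lower in all. The 9 had log2 differences from 1.98 for Etv1 to 3.21 for Cbln3 (adjusted p from 0.00664 to 0.0139). Male WT 1 held the highest sum of the 9 genes among WT-labelled libraries, 4758 CPM, so a larger difference follows from leaving it out. The number of genes called in all was 1422 with every library. It was 6400 without male WT 1, and it also moved by more than 1.5 times without any 1 of the others except male KO 2, to between 7 and 703. Male WT 1 also held 1420 CPM summed over 10 choroid plexus genes (22.5 to 43.9 in the other cerebellar libraries). Without the 3 libraries of lowest Pcp2, all labelled WT, the estimates shrank to between 0.30 (Fat2) and 0.57 (Neurod1). These 3 also held the lowest sums of the 9 genes, so a smaller difference follows from leaving them out. The fit without them keeps a single male WT library, which is assumed to vary like the other groups.

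**Figure D4:**
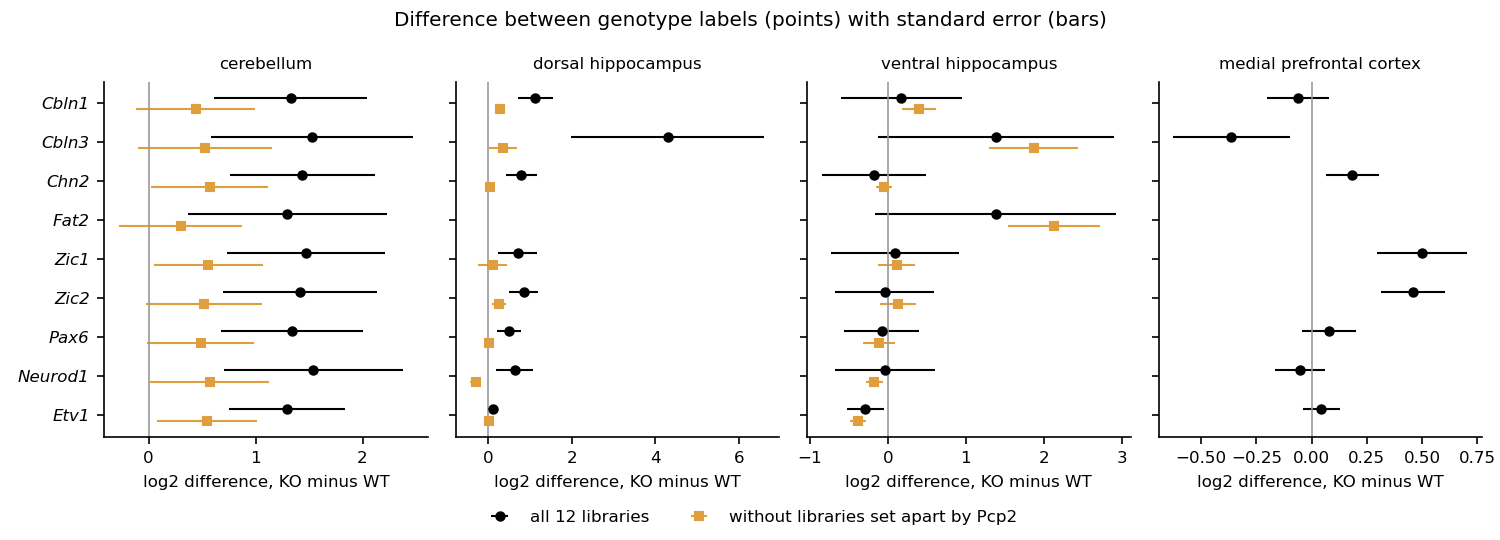
Log2 difference KO minus WT (points) with its standard error (bars) for the 9 genes in each region, from all 12 libraries (black) and without the libraries set apart by Pcp2 (orange; horizontal scales differ between panels, and genes that were not tested have no point). Cerebellar estimates of 1.29 to 1.54 shrink to 0.30 to 0.57 without 3 WT-labelled libraries, which also held the lowest sums of the 9 genes. The dorsal hippocampal estimate for Cbln3 goes from 4.30 to 0.36 without 1 library.

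The label difference was also compared between the sexes. In females the estimates ran from 0.91 (Etv1) to 1.24 (Neurod1) and in males from 1.51 (Fat2) to 1.86 (Cbln3). The difference between the sexes was called for none of the 9, with estimates (female minus male) from -0.81 for Chn2 to -0.41 for Cbln1 and SE from 1.07 to 1.85. For it edgeR called 0% of the 17825 genes in the cerebellum, with 2412 at an unadjusted p under 0.05, and DESeq2 called 149 genes.

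Of the 19 other granule cell genes, none was called between the labels by edgeR, with a median log2 difference of 0.87 and 8 at an unadjusted p under 0.05. The 11 Purkinje cell genes had a median of 1.30, again with none called. Among 13 genes of the cerebellin synapse, 1 fell under KO: C1ql1, whose product binds the receptor Adgrb3 at climbing fibre synapses (log2 difference -1.06, SE 0.21, edgeR adjusted p = 0.0427). Among 17 family relatives Fat3 fell (-0.83, SE 0.18, adjusted p = 0.0427), and among 9 of 11 precursor genes tested the Wnt inhibitor Sfrp1 fell (-0.68, SE 0.11, adjusted p = 0.0427). Of 10 oligodendrocyte genes 7 fell, among them the myelin genes Opalin (-1.07), Mag (-0.89) and Mal (-0.85) and their regulator Myrf (-0.74). Over all genes tested 5.55% were called lower, so 1 gene in a list is near the background. Leaving out 1 library left 7 to 35 called genes for 9 of the 12, 703 without female KO 3 and 6400 without male WT 1, while the count moved by less than 1.5 times without male KO 2. Whether the list genes named here were still called in those fits was not examined.

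In the dorsal hippocampus, 1 library held most of the members' difference. Male KO 1 held 500 CPM of Cbln3 and 249.2 of Fat2, while the other 11 libraries held 0.399 to 1.40 CPM of Cbln3 and 0.057 to 0.584 of Fat2. It also held 332 CPM of Cbln1 against 21.7 to 56.1 in the others, 234 of Chn2 against 31.3 to 36.5, and 124 of Neurod1 against 11.8 to 21.8. That library therefore lies outside the range of the other 11 for these genes, and the 2 labels otherwise overlap. Its Etv1, at 254 CPM, was close to the next library at 231.

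None of the 8 members tested was called between the labels by edgeR or DESeq2 (by edgeR 0.655% of 17402 genes were, 0.184% higher and 0.471% lower). Fat2, near 0 in every library but male KO 1, did not pass the low-count filter. Cbln1 and Zic2 were under 0.05 before adjustment, and the median over the 8 was 0.75 against 0.01 over all genes. Cbln3 had an estimate of 4.30 (SE 2.31, edgeR adjusted p = 0.421) and Cbln1 of 1.13 (SE 0.43, adjusted p = 0.258). Without male KO 1 these became 0.36 (SE 0.34) and 0.27 (SE 0.12), and again none was called. Chn2 was then at 0.03 (SE 0.05), Zic2 at 0.26 (SE 0.17) and Neurod1, which had stood at 0.63, at -0.30 (SE 0.13, edgeR adjusted p = 0.288). The Purkinje cell list summed to 3088 CPM in male KO 1 and to 1031 to 1303 in the other 11. For the difference between the sexes edgeR called 0% of genes, with 2253 at an unadjusted p under 0.05, and DESeq2 called 299 genes, none of them members. In the absence of a low-count filter, edgeR called 8 members for the label, where 1106 genes were called in all. For the difference between the sexes it then called 9 members, where 546 genes were called in all.

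In the ventral hippocampus 4 libraries of both labels carried the members. Cbln3 stood at 968 CPM in male WT 1, 817 in male KO 3, 544 in male WT 2 and 75.9 in female KO 1. The other 8 libraries held 0.466 to 8.15 CPM. For Chn2 the 4 libraries held 419, 408, 276 and 59.3 CPM, and the other 8 held 29.5 to 35.8. Both labels have such libraries, and the label estimates ran from -0.29 for Etv1 (SE 0.23) to 1.39 for Cbln3 (SE 1.52).

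None of the 9 was called there by edgeR or DESeq2 (by edgeR 0.0748% of 17388 genes were, 0.0460% higher and 0.0288% lower), and none was under 0.05 before adjustment. Without the 4 libraries the estimates for Fat2 and Cbln3 were 2.13 (SE 0.59, adjusted p = 0.785) and 1.87 (SE 0.57, adjusted p = 0.878), still not called. That fit keeps a single male WT library, which is assumed to vary like the other groups. These values go with Pcp2 and Gabra6 in the same 8 libraries: male KO 2, highest in Cbln3 at 8.15 and in Fat2 at 7.10 CPM, was also highest in Pcp2 at 2.82 and in Gabra6 at 3.97 CPM. Their part in the difference was not tested. For the difference between the sexes edgeR called 0% of genes, with 755 at an unadjusted p under 0.05, and DESeq2 called 1.

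The 5 hippocampal libraries carried the members in nearly the proportions of the cerebellum. For each, the level above the median of the other libraries of its region was divided by the same excess of Cbln3. For Cbln1 in male KO dorsal 1 this gave 0.575 CPM per CPM of Cbln3, next to a slope of 0.576 over the cerebellar libraries. Neurod1 in the same library gave 0.215 next to 0.217, and Zic2 gave 0.170 next to 0.169. Divided by the cerebellar slope, the 40 values of 8 genes in 5 libraries had a median of 0.973 and ran from -0.218 to 1.66.

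Etv1 departed most. It gave 0.113 to 0.224 CPM per CPM of Cbln3 in 4 of the libraries and -0.0633 in female KO ventral 1, next to a cerebellar slope of 0.291. Cbln1 in female KO ventral 1 stood highest, at 0.957 next to 0.576. That library had the smallest Cbln3 excess, 73.9 CPM, so its quotients are the least precise. The libraries were chosen by their Pcp2. Their Gabra6 stood at 186 CPM in male KO dorsal 1, 30.3 in female KO ventral 1, 322 in male KO ventral 3, 306 in male WT ventral 1 and 180.2 in male WT ventral 2, next to at most 3.97 CPM in the other hippocampal libraries. Where the RNA of these libraries came from was not tested.

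**Figure D5:**
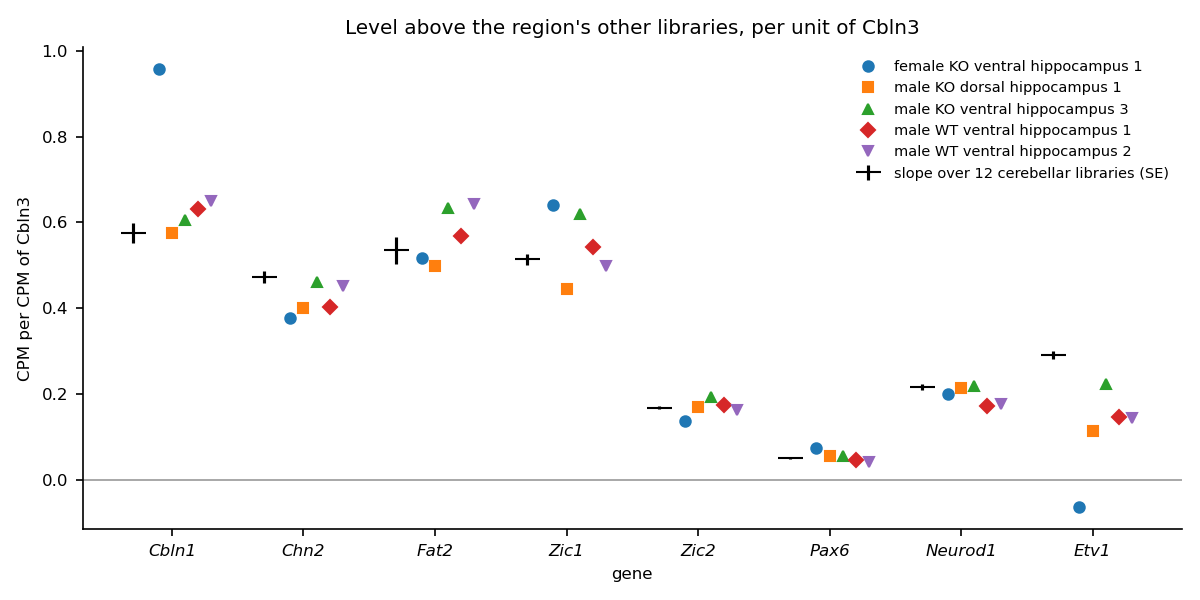
Level above the median of the region's other libraries, in CPM per CPM of the same excess of Cbln3, for 8 genes (coloured symbols, 5 hippocampal libraries), beside the slope on Cbln3 over the 12 cerebellar libraries with its SE (black). Divided by the slope, the values have a median of 0.973 and run from -0.218 to 1.66; Cbln1 in female KO ventral hippocampus 1 stands at 0.957 next to 0.576, and Etv1 lies below its slope in every library (at most 0.224 next to 0.291).

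In the prefrontal cortex mean levels of the members ran from 0.197 CPM for Fat2 to 109 CPM for Etv1, and Zic1 varied 3.87-fold. None of the 8 tested was called between the labels by edgeR or DESeq2 (by edgeR 0.240% of 17067 genes were, 0.170% higher and 0.0703% lower). The ZIC genes alone were under 0.05 before adjustment. Zic2 ran from 11.6 through 16.2 to 22.8 CPM under KO and from 7.82 through 12.7 to 14.8 under WT, with a log2 difference of 0.46 (SE 0.14, edgeR adjusted p = 0.202). Zic1 ran from 18.4 through 24.3 to 51.9 CPM under KO and from 13.4 through 19.4 to 30.3 under WT (0.50, SE 0.21, adjusted p = 0.305). The labels overlap in both genes.

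The top Zic1 value, 51.9 CPM, is that of female KO 3, and its female partners 1 and 2 held 18.4 and 19.6. Female KO 3 also held 1502 CPM over 11 genes of striatal projection neurons, and female KO 2 held 1584, where the region's other libraries held 383 to 1042. The part of such cells in the Zic1 level was not tested. Without a low-count filter both ZIC genes were called higher under KO by edgeR, where 562 genes were called in all. Cbln3 stood at 0.338 to 0.819 CPM in the region. Fat2 had 0 counts in female KO 1, which allows up to 0.205 CPM (3 counts), and at most 0.543 CPM elsewhere. The sex by label difference was called for none of the 8 (1.61% of genes were, 0.797% higher and 0.809% lower). Its largest estimate was that of Zic1, 1.05 (SE 0.41, edgeR adjusted p = 0.195). For Chn2 it was 0.58 (SE 0.24, adjusted p = 0.216). Without male KO 1 it was called for Chn2 at 0.83 (SE 0.20, edgeR adjusted p = 0.0285), where 800 genes were called in all (272 higher and 528 lower).

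Between the 3 forebrain regions, tested in 1 fit of 36 libraries, Cbln1 separated the prefrontal cortex from the hippocampus without overlap. It ran from 21.7 through a median of 45.1 to 332 CPM in the dorsal hippocampus, from 19.3 through 36.0 to 638 in the ventral hippocampus and from 5.40 through 9.58 to 10.9 in the prefrontal cortex. Every prefrontal library lies below every hippocampal one. By edgeR, Cbln1 was lower in prefrontal cortex than in dorsal hippocampus by a log2 difference of -2.66 (SE 0.46, adjusted p = 4.44e-05), and -2.23 (SE 0.12) without the 5 libraries.

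In that comparison 34.0% of 18513 genes were called, 15.6% higher and 18.3% lower. Of the 9 members 4 were called lower and none higher: Cbln1, Zic1 (-1.80, SE 0.47, adjusted p = 0.00321), Neurod1 (-1.16, SE 0.39, adjusted p = 0.0213) and Etv1 (-0.87, SE 0.12, adjusted p = 1.85e-06). Without the 5 libraries these 4 were still lower, at -2.23, -1.50, -0.69 and -0.83 in that order. Chn2 then stood at -0.26 (SE 0.07) and Zic2 at -0.59 (SE 0.14). Only estimates are given, since that fit keeps a single male WT ventral library. Zic1 in the dorsal hippocampus, apart from male KO 1, ran from 17.1 to 106 CPM. It was lowest in male WT 1, which also held the lowest sum of 12 thalamus and habenula genes (345 CPM), and highest in female WT 1 and female KO 2, whose sums were the highest (622 and 706 CPM). The part of thalamic tissue was not tested.

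Between prefrontal cortex and ventral hippocampus all 9 members were called lower in the cortex, where 37.2% of genes were called (17.5% higher and 19.7% lower), from -0.68 for Etv1 (SE 0.12, edgeR adjusted p = 4.78e-05) to -7.41 for Fat2 (SE 1.91, adjusted p = 0.00268). Without the 5 libraries, which leaves a single male WT ventral library, the estimates were smaller. Cbln1 stood at -1.72 (SE 0.13), Neurod1 at -0.92 (SE 0.09), Etv1 at -0.40 (SE 0.08) and Zic2 at -0.41 (SE 0.16). Cbln3 stood at -1.75 (SE 0.33) and Fat2 at -2.73 (SE 0.55). Zic1 stood at -0.01 (SE 0.27), Chn2 at -0.13 (SE 0.08) and Pax6 at -0.23 (SE 0.11). Cbln3 and Fat2 had few counts in the prefrontal cortex, so the size of their differences is loosely set. The ventral libraries kept still include male KO 2, at 8.15 CPM of Cbln3 and 7.10 of Fat2, which was also highest in Pcp2 and Gabra6.

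Dorsal and ventral hippocampus gave the least steady comparison. It called 21.7% of genes (11.8% higher and 9.91% lower). With all libraries 3 members were lower in the dorsal hippocampus: Cbln3 (-4.20, SE 1.26, edgeR adjusted p = 0.0163), Fat2 (-4.68, SE 1.55, adjusted p = 0.0293) and Neurod1 (-1.01, SE 0.37, adjusted p = 0.0482). Leaving out 1 library, where 3270 to 4960 genes were called in all, gave between 0 and 7 called members. It gave 0 without female KO ventral 1 or female WT ventral 3, 1 lower without female WT ventral 2, 6 lower without male KO ventral 1 or male WT ventral 3, and 7 lower without male KO dorsal 1. Without male KO ventral 3 the only member called was Etv1, which was higher in the dorsal hippocampus.

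Without the 5 libraries the direction turned for Zic1 and Cbln1. Only estimates are given, since that fit keeps a single male WT ventral library. Zic1, at medians of 78.9 CPM in dorsal and 23.7 in ventral hippocampus, was then higher in the dorsal hippocampus (1.497, SE 0.28), from -0.05 before. Cbln1 stood at 0.51 (SE 0.13), from -0.82, and Etv1 at 0.43 (SE 0.08), from 0.19. Cbln3 (-1.38, SE 0.31) and Fat2 (-2.13, SE 0.50) were still lower, at medians of 0.636 and 2.02 CPM for Cbln3 and 0.255 and 1.38 CPM for Fat2. Among the ventral libraries kept, male KO 2 still held 8.15 CPM of Cbln3 and 7.10 of Fat2, and was also highest in Pcp2 and Gabra6. Neurod1 stood at -0.22 (SE 0.09). Pax6 was level at -0.04 (SE 0.11), and its levels, 9.85 ± 0.886 and 10.0 ± 1.93 CPM (SD, n = 11 and 8), did not differ beyond their spread.

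Markers moved with these regional differences too. With all libraries, 4 of 11 Purkinje cell genes were lower in the dorsal hippocampus, among them Pcp2 (-4.23) and Ppp1r17 (-4.16), and 8 of 12 thalamus and habenula genes were higher, among them Gpr151 (4.09) and Chrna3 (3.15). Of 13 cerebellin synapse genes 2 were higher in the dorsal hippocampus, Cbln2 (1.09, SE 0.16) and Nrxn3 (0.27, SE 0.05), and 4 were lower, among them Nrxn2 (-0.26, SE 0.03) and Shank2 (-0.30, SE 0.05). Cbln4, a relative secreted by other neurons, was lower in prefrontal cortex than in ventral hippocampus (-1.68, SE 0.16, edgeR adjusted p = 1.95e-09), the same direction as Cbln1. The part of tissue borders in the members' regional differences was not tested.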

How the data were processed

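Gene counts of 48 libraries were used as the authors deposited them: raw counts per gene, with alignment by HISAT2 2.0.5 to mm39 per the submitters' processing notes, which also name DESeq2. The counting tool, its strand setting and the annotation release are not given in the sources used here. Gene lengths and positions came from the same deposited table. The members and all gene lists were chosen with earlier results of these data known.

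Library totals of 14.56 to 25.86 M counts were scaled by TMM to CPM. Regions were fitted with edgeR 4.0.16 (R 4.3.3, limma 3.58.1), with its quasi-likelihood test after a low-count filter (filterByExpr, count minimum 10, total minimum 15). Each group had its own mean, label contrasts were averaged over the sexes, and regional contrasts came from 1 fit of the 36 forebrain libraries. P-values were adjusted over all genes tested (Benjamini-Hochberg, threshold 0.05), and the fits were tested on simulated data. Since the labels do not tie libraries to separate mice, p-values measure only the spread between libraries. Labels also do not say whether regions came from the same mice, and the forebrain fit takes the libraries as independent. The labels' extraction text speaks of liver, though the named source is brain.

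Named genes were the 9 members, up to 4 genes of a list past the threshold, up to 4 defining markers of a list, and the 10 genes most like the members. Other list genes, such as Slc17a7, Chn1 and Fat1, were named after their values were seen. Results for some list genes are left out. Alternatives were DESeq2 1.42.0, RLE size factors, other filters, the replicate number as a block, 1 model of 48 libraries, WT-labelled libraries alone and leaving out libraries. No pair of libraries within a group was a copy (chi-square per degree of freedom at least 3.73 over 48 pairs). Promoters came from RefSeq (GRCm38.p6).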

Additional observations from a re-analysis of the deposited data

Results flagged for a closer look

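In groups of 6 libraries of one region and label, 72 gene and group combinations were examined for a highest or lowest library far from the rest, and 21 were found. A chance rate of about 1 in 20 applies to a single combination and assumes normally distributed values. Most of the 21 come from male KO dorsal hippocampus 1 and male KO ventral hippocampus 3, where the members are high together. The combinations are therefore not independent, and 21 of 72 cannot be weighed against that rate.

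Male KO 1 stood far above the other 5 dorsal hippocampal libraries labelled KO in 8 of the 9 genes. It held 332 CPM of Cbln1, 499.8 of Cbln3, 234 of Chn2 and 249.2 of Fat2. For the transcription factors it held 301 CPM of Zic1, 106 of Zic2, 37.6 of Pax6 and 124 of Neurod1.

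Male KO 3 stood far above the other 5 ventral hippocampal libraries labelled KO in all 9 genes. It held 523 CPM of Cbln1, 817 of Cbln3, 408 of Chn2 and 517 of Fat2. It held 529 CPM of Zic1, 176 of Zic2, 55.8 of Pax6, 199 of Neurod1 and 324 of Etv1. Both libraries also held Pcp2 above 10 CPM. The part of cerebellar tissue in them was not tested.

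The other 4 were single genes. Cbln3 stood at 1.19 CPM in male WT dorsal hippocampus 1, above 0.642 in the next library. Chn2 stood at 37.1 CPM in male WT prefrontal cortex 2, above 27.5 in the next. Fat2 stood at 0.418 CPM in male KO prefrontal cortex 2, above 0.150 in the next, a level of few counts. Zic1 stood at 51.9 CPM in female KO prefrontal cortex 3, above 30.0 in the next.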

How the results depend on the processing

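Of the numbers of members called under each alternative, 260 equalled the reported number or lay within 1.5 times it, and 19 did not. The 260 include cases of 0 against 0, since no member was called for the label or for sex by label as reported. They are thus a weak measure of steadiness. For the label in the cerebellum, 2 members (Pax6 and Etv1) were called in 1 model of 48 libraries, and leaving out 1 library gave 0 to 9. With no low-count filter, 8 were called for the label and 9 for sex by label in the dorsal hippocampus, 2 for each in the prefrontal cortex, and 7 for each of dorsal against ventral hippocampus and prefrontal cortex against dorsal hippocampus. DESeq2 called 7 in the latter. Leaving out 1 library gave 0 to 1 for sex by label in the prefrontal cortex (1 without male KO 1) and 0 to 7 for dorsal against ventral hippocampus. That comparison gave 6 in WT-labelled libraries alone. Without the 5 hippocampal libraries its estimate turned to 0.51 for Cbln1 and to 1.497 for Zic1. The log2 ratio of cerebellum to forebrain was 9.09 for Cbln3 and 9.18 for Fat2 without the 5, and -0.35 for Etv1 in WT-labelled libraries. The cause was not tested.

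Over all genes, the label calls in the cerebellum (1422) became 3822 with DESeq2, 6240 in 1 model of 48 libraries and 13 without the 3 of lowest Pcp2, and 7 to 6400 without 1 library. In the dorsal hippocampus (114) they became 446 with DESeq2, 1106 unfiltered, 25 in 1 model, 191 without male KO 1 and 36 to 191 without 1 library. In the prefrontal cortex (41) they became 188, 562 and 19 in the first 3 of these and 21 to 244 without 1 library, and in the ventral hippocampus (13) 20 with DESeq2. Sex by label calls became 149 (DESeq2), 35 (unfiltered) and 1054 (1 model) in the cerebellum (0), 299, 546 and 11 in the dorsal hippocampus (0), and 592, 1078 and 43 in the prefrontal cortex (274), where leaving out 1 library gave 59 to 800. WT-labelled libraries alone gave 2632 for dorsal against ventral hippocampus (4016) and 3522 for prefrontal cortex against dorsal hippocampus (6288).

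Same-numbered KO and WT libraries of one region and sex deviated together (r above 0.1) in 2 of 24 pairs. Libraries of 2 forebrain regions with one sex, label and number did so in 6 of 36 pairs, with r up to 0.185. Such weak correlations cannot tell whether a replicate number marks the same mouse. With the replicate block, the label calls in the cerebellum were 522 and the sex by label calls 4. Members called under the block were 0 for every label and sex by label comparison, and 2, 4 and 9 for the 3 regional ones. At these depths Fat2 and Cbln3 rest on few counts in the prefrontal cortex.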
